A study of Homo sapiens with 4 samples.

Results

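The matrix cells described here are 439 of the 9680 cells with at least 500 detected genes in the series, and 439 of the 4240 such cells from blastoids. They were chosen by their measured transcripts, as blastoid cells with at least 1 UMI (a tagged, counted RNA molecule) in 3 or more of the 6 matrix genes POSTN, DCN, MGP, CXCL14, EGFL6 and MFAP4. A cell was left out if its summed UMIs over MESP1, MSGN1, MIXL1 and TBX6 (nascent mesoderm) reached 2, if 2 or more of TFAP2A, TFAP2B, GABRP, VTCN1 and KRT7 (amnion-like epithelium) were detected, or if 3 or more of POU5F1, SOX2, NANOG, TDGF1 and PRDM14 (pluripotency) were detected. These 20 genes are described without a test.

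In all, 4 samples of the human embryonic stem cell line KhES1 were profiled by single-cell RNA sequencing of 3′ transcript ends on the 10x Chromium system. The samples hESC 1 and hESC 2 were undifferentiated cells kept in mTeSR-1 medium on Matrigel. The samples blastoid 3 and blastoid 4 were blastoids, embryo-like aggregates made from the same line, which were embedded in a thermoresponsive hydrogel and fed iBlastoid medium. No sample carries a labelled genetic change, the labels do not say whether samples of a group came from separate cultures, and the day printed in the blastoid titles differs from that in their table names. Cells with at least 500 genes held 13488703 and 15913590 UMIs in the stem cell samples and 15227582 and 18139535 in the blastoid samples, with a median of 4996 to 8828 UMIs per cell.

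Stromal cells build the extracellular matrix. They translate procollagens into the endoplasmic reticulum, where prolyl and lysyl hydroxylases and chaperones modify and fold them, ship them in enlarged COPII carriers, and release them to be trimmed and crosslinked outside the cell. In the early human embryo, matrix-producing mesenchyme appears first in the extraembryonic mesoderm, which lines the amnion, the yolk sac and the chorion. Such cells also signal to neighbouring epithelia through secreted ligands and through proteins that bind growth factors. Here only RNA was measured, so secretion itself was not.

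Matrix cells were more frequent in blastoid 3 than in blastoid 4. Blastoid 3 held 303 among 2289 cells, a share of 13.2% (exact Clopper-Pearson 95% interval 11.9% to 14.7%), and blastoid 4 held 136 among 1951, a share of 6.97% (5.88% to 8.19%). The mean share was 10.1% ± 4.43 (SD, n = 2). In the stem cell samples 0 of 2265 and 0 of 3175 cells met the rule, which allows shares of up to 0.132% and 0.0945% (3 counts of the total), and these intervals and limits cover counting error only. The cut at 3 matrix genes fell inside a continuous range, since 161 cells of blastoid 3 and 158 of blastoid 4 had exactly 2 matrix genes while 124 and 58 had exactly 3. The matrix cells are thus the cells above a cut on this count, and whether they form a separate type was not tested. Few cells with 3 or more matrix genes were left out, namely 1 in blastoid 3 and 4 in blastoid 4 as epithelial and 1 in blastoid 4 as pluripotent.

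The remaining blastoid cells were 2487 other non-epithelial cells (same exclusions, fewer than 3 matrix genes), 1001 epithelial cells, 175 nascent mesoderm cells and 138 pluripotent cells, named by the same markers. The matrix cells and the other non-epithelial cells had similar median depths. The median was 6171 against 5962.5 UMIs per cell in blastoid 3 and 8276.5 against 8195 in blastoid 4, and the median mitochondrial share was 7.95% against 8.71% and 8.73% against 9.92%. At least 2000 UMIs were reached by 301 of 303 matrix cells against 1349 of 1440 other non-epithelial cells in blastoid 3, and by 136 of 136 against 1011 of 1047 in blastoid 4. The median matrix cell of each sample had 0 of the 5 epithelial, 0 of the 4 nascent mesoderm and 0 of the 5 pluripotency genes of the rule. The exclusions allowed at most 1, 1 and 2 of these genes in a matrix cell, so the medians were largely set in advance. A doublet caller marked 1 matrix cell in each blastoid sample. The blastoid tables share 1035 barcodes. Of the blastoid 4 matrix cells 66 carry a barcode that also occurs in the blastoid 3 table, where 0 of those copies reached 500 genes, and 0 of the blastoid 3 matrix cells carry a shared barcode. Without the cells of shared barcodes blastoid 4 held 70 matrix cells among 916, a share of 7.64%.

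The 6 matrix genes, which chose the cells, were not expressed to the same extent in every cell. Levels in the text are CPM, the UMIs of a gene per 1000000 UMIs of the summed cells, given for blastoid 3 and then blastoid 4. DCN encodes decorin, a proteoglycan that binds collagen fibrils, and stood at 1084 and 811 CPM with a UMI in 98.3% and 100% of the cells. POSTN, for the matricellular protein periostin, stood at 1985 and 1010.1 CPM with a UMI in 89.8% and 88.2% of cells. CXCL14, a chemokine of fibroblasts and epithelia, stood at 2067 and 2279.6 CPM with a UMI in 77.2% and 71.3% of cells. The microfibril-associated glycoprotein gene MFAP4 was at 180.5 and 241 CPM and was detected in 55.1% and 62.5% of cells. EGFL6, a secreted EGF-repeat protein of basement membranes, was at 228 and 163 CPM and was detected in 41.6% and 34.6%. MGP, for matrix Gla protein, an inhibitor of calcification, was at 172 and 159 CPM but was detected in only 26.1% and 25.7% of the cells, and the 10% of cells with the most MGP held 81.2% and 82.9% of its UMIs. DCN was the most evenly spread of these 6 genes in both samples and MGP the least, so a matrix cell nearly always carried DCN, usually POSTN and CXCL14, and MGP in a minority.

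The same genes were low but not absent in the other non-epithelial cells, where DCN stood at 117 and 125 CPM and CXCL14 at 22 and 20.3. With each cell thinned to 2000 UMIs, DCN was detected in 79.7% and 73.5% of matrix cells, 15.7% and 16.9% of other non-epithelial cells and 1.14% and 0.794% of epithelial cells. CXCL14 was detected in 64.8% and 49.3%, 2.67% and 1.38% and 1.14% and 1.75%. The summed level of all 6 genes was 5717 and 4663.7 CPM in matrix cells, 248.9 and 216.4 in other non-epithelial cells, 64.5 and 72.0 in epithelial cells, 35.6 and 69.1 in nascent mesoderm cells and 33.4 and 108.6 in pluripotent cells. The gap between matrix cells and other non-epithelial cells in these genes follows from the rule, which divides them on the same 6 genes.

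Promoters are shown for POSTN and CXCL14, 2 of the 6 genes that define the cells, and for SST. SST had the largest rise among genes of at least 100 CPM, described further on. The windows are the 250 bases before the annotated start in RefSeq (GRCh38.p14), printed 5′ to 3′ on the gene's strand, and all 3 genes lie on the minus strand. Capitals mark matches on either strand to any of 4 motifs, the TATA box TATAAA, the cAMP response element TGACGTCA, the CCAAT box CCAAT and the AP-1 site TGANTCA, which do not overlap here. Positions are counted back from -1, the base just before the start.
POSTN, chr13:37598769-37599018: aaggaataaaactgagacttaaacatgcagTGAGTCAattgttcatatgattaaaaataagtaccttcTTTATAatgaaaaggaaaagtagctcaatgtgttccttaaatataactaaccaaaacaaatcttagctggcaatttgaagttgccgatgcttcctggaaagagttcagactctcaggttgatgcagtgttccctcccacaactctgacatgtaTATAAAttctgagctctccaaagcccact
CXCL14, chr5:135578992-135579241: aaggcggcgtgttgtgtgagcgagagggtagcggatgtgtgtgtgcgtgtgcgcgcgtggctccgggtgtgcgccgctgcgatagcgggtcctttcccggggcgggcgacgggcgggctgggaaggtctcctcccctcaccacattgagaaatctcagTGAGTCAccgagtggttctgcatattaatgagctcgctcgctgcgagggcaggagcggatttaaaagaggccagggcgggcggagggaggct
SST, chr3:187670395-187670644: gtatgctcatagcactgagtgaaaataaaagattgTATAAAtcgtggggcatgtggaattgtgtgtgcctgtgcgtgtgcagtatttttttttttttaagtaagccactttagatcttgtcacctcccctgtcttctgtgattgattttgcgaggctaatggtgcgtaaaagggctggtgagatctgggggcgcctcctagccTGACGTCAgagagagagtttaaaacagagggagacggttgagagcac
The POSTN window has TATA matches at -29 to -24 and at -182 to -177 and an AP-1 match at -220 to -214. The CXCL14 window has an AP-1 match at -92 to -86 and no TATA match. The SST window has the 8-base cAMP response element at -47 to -40, for which this promoter is a textbook example, and a TATA match at -215 to -210. Among all 35116 promoter windows of the same length in the table, 10.7% hold the TATA letters, 1.65% the cAMP response element, 32.0% the CCAAT letters and 6.57% the AP-1 letters. Of the 6 matrix genes 3 have a window in the table, and 2 of these 3 hold the AP-1 letters. Those 2 are the POSTN and CXCL14 windows printed here, and the third window is not printed. Among 9 windows of the 12 genes with the largest rises, described further on, 0 hold the AP-1 letters. A match is a description of the sequence and says nothing of factor binding.

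Several genes outside the rule changed in steps with the number of matrix genes a cell carried. COL3A1, the fibrillar collagen of pliable tissues, stood at 335, 917, 1918, 3543, 4657 and 6361 CPM in blastoid 3 cells with 0, 1, 2, 3, 4 and 5 to 6 matrix genes. The same steps in blastoid 4 were 266, 687, 1375, 1815, 3709 and 4814 CPM. The lumican gene LUM, a keratan sulfate proteoglycan of collagen fibrils, stood at 209, 682, 1158, 1564, 1936 and 2240.4 CPM in blastoid 3 and at 269, 808, 1094, 1500.2, 2172 and 2916 CPM in blastoid 4. Both genes were higher at every step in both samples. These levels are a description, since the same cells set the steps. IGFBP3, a secreted binding protein of insulin-like growth factors, stood at 99.4, 204, 569, 1323, 2092 and 2758 CPM in the same order in blastoid 3. In blastoid 4 IGFBP3 stood at 131, 208, 466, 1132, 2547 and 2884 CPM.

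Other genes were lower in cells with more matrix genes, though not at every step. The membrane receptor gene PRTG (protogenin) stood at 669, 672, 506, 234, 191 and 104 CPM in blastoid 3 and at 421, 488, 349, 205, 139 and 115 CPM in blastoid 4. ID1, a BMP-induced inhibitor of helix-loop-helix factors, stood at 245, 175, 129, 109.5, 50.9 and 59.3 CPM in blastoid 3 and at 275, 276, 228, 195, 79.5 and 23.7 CPM in blastoid 4. HAND1, a helix-loop-helix factor of extraembryonic and cardiac mesoderm, was highest in cells with 2 matrix genes and lowest in cells with 5 to 6, at 767, 959.5, 969.8, 779, 646 and 438 CPM in blastoid 3 and 954, 1215, 1237, 1086, 916 and 593 CPM in blastoid 4. Vimentin (VIM), the intermediate filament of mesenchyme, stood at 776, 853, 823, 796, 866 and 845 CPM in blastoid 3. In blastoid 4 VIM stood at 784, 1213, 1244, 861, 939 and 1139 CPM, lowest in cells with 0 matrix genes in both samples. The median UMIs per cell did not follow these steps, at 5584 to 7150 in blastoid 3 and 7643 to 9569.5 in blastoid 4.

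**Figure D1:**
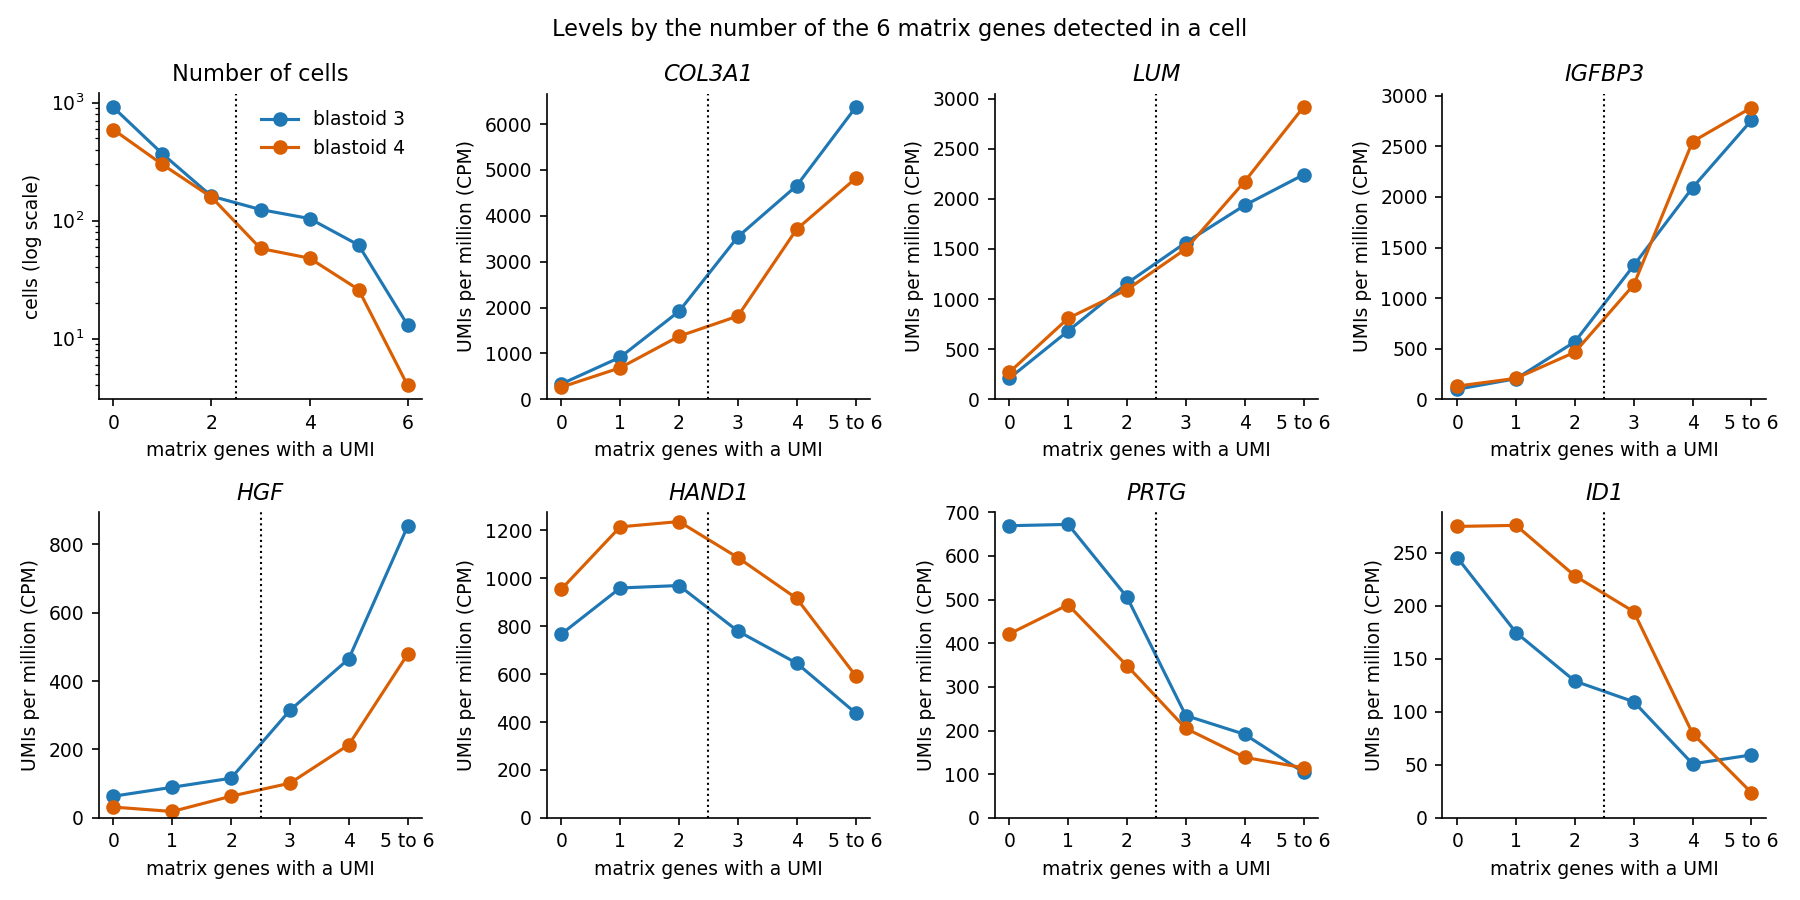
Number of cells and level of 7 genes in non-epithelial blastoid cells grouped by how many of the 6 matrix genes have a UMI; the y axes are cells (log scale) and CPM, blue is blastoid 3, orange is blastoid 4, and the dotted line is the cut between 2 and 3 genes. COL3A1, LUM and IGFBP3 climb across the cut without a break, while PRTG, ID1 and, past 2 genes, HAND1 end lower than they start.

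The matrix cells were then compared with the other 2487 non-epithelial cells of the same blastoids, which asks what else differed between cells on either side of the cut. Fibrillar collagens, the enzymes that process them and the secretory pathway were higher in the matrix cells in both samples, while most tested genes of the BMP response, of amnion-like epithelium and of the primitive streak were lower. Counts were summed per sample and population and fitted with edgeR's quasi-likelihood test with the sample as a block. At a Benjamini-Hochberg adjusted p under 0.05, 1637 of 13405 genes (12.2%) were higher and 1367 (10.2%) lower. DESeq2 on the same sums called 538 genes higher (4.01%) and 195 lower (1.45%), all among the edgeR calls with the same sign. Scaled by library size alone in place of TMM factors, edgeR called 1410 higher and 1797 lower, so the higher share of calls was 44.0% in place of 54.5%. Without cells of shared barcodes edgeR called 1173 genes higher and 894 lower. Each difference below is a log2 difference ± SE from the edgeR fit with 2 samples. The SE was derived from the test statistic and rests on spread pooled over genes. It is not the gene's own spread between the 2 samples, which can be larger. Below, "called" refers to edgeR, and counts by DESeq2 are given beside the list counts. The cells were divided on transcripts of the same libraries, so these tests describe genes that went with the matrix genes in these 2 samples. Their p-values set each difference against how differences varied between the 2 samples, with that spread pooled over genes. They cover no variation beyond these samples.

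Every tested fibrillar or associated collagen was higher in the matrix cells. All 12 tested genes of this list of 15 were called higher by edgeR and 10 by DESeq2, with a median difference of 1.70 against -0.01 over all genes. COL3A1 stood at 4636 and 3168 CPM in matrix cells and 669 and 555 in the other non-epithelial cells (2.71 ± 0.06), and had a UMI in 100% of matrix cells in both samples. COL1A1 and COL1A2, the chains of type I collagen, stood at 697 and 644 against 254 and 256 CPM (1.45 ± 0.07) and at 1041 and 835 against 306 and 266 CPM (1.76 ± 0.06). The 2 samples gave the same order for each of these genes. COL5A1 and COL5A2, which start type I fibrils, differed by 1.85 ± 0.09 and 1.98 ± 0.08. The beaded-filament chains COL6A1, COL6A2 and COL6A3 differed by 1.24 ± 0.06, 1.64 ± 0.06 and 1.17 ± 0.06. COL14A1, which coats fibrils, had the largest difference of the list (3.02 ± 0.23) at a low level of 37.5 and 42.5 CPM. COL21A1 (0.50 ± 0.18) and COL16A1 (1.92 ± 0.67), at 27.5 and 36.6 and at 3.5 and 2.55 CPM, were not called by DESeq2. As a share of all UMIs the 15 collagen genes took 1.01% and 0.790% in matrix cells, 0.266% and 0.237% in the other non-epithelial cells and 0.0195% and 0.0195% in the stem cell samples.

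Enzymes that modify procollagen were higher as well. Of 14 tested genes 9 were called higher and 1 lower by edgeR, and 7 higher and 0 lower by DESeq2, with a median difference of 0.87. The prolyl hydroxylase subunits P4HA1 and P4HA2 stood at 329 and 239.8 against 172 and 121 CPM (1.01 ± 0.08) and at 74 and 59.5 against 26.3 and 26.7 CPM (1.41 ± 0.14). PCOLCE, which enhances removal of the procollagen C-propeptide, stood at 196 and 228 against 72.3 and 91.4 CPM (1.43 ± 0.09). The lysyl hydroxylase PLOD2 (0.97 ± 0.10), the collagen chaperone SERPINH1 (0.86 ± 0.08) and the collagen prolyl isomerase FKBP10 (0.89 ± 0.10) were also higher. The procollagen N-proteinase ADAMTS2 was called lower by edgeR at 0.5 and 0.85 against 3.03 and 3.16 CPM, a level of few UMIs. The lysyl oxidases LOX, LOXL1 and LOXL2 were not called, with LOX at 6.5 and 3.4 against 3.92 and 2.14 CPM.

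The general secretory pathway moved with the collagens. Of 30 genes 28 were called higher and 0 lower by edgeR, and 22 and 0 by DESeq2, with a median difference of 0.66. These genes together took 0.960% and 0.989% of UMIs in matrix cells against 0.655% and 0.671% in the other non-epithelial cells. The largest difference was in CREB3L1, a membrane-bound transcription factor that drives secretory and collagen genes, at 87.5 and 77.4 against 10.7 and 12.9 CPM (2.88 ± 0.15). The KDEL receptor KDELR3, which returns chaperones to the endoplasmic reticulum, stood at 32.5 and 34.9 against 9.53 and 8.69 CPM (1.92 ± 0.22). SEC24D and SEC23A, COPII coat subunits, differed by 1.65 ± 0.13 and 0.88 ± 0.12, and the cargo receptor for collagen export MIA3 by 0.32 ± 0.09, which DESeq2 did not call. P4HB, protein disulfide isomerase and a subunit of prolyl hydroxylase, stood at 274 and 348 against 136 and 179.6 CPM (1.04 ± 0.08). The chaperones HSP90B1 (0.77 ± 0.05), HSPA5 (0.64 ± 0.06) and CALR (0.64 ± 0.06) and the unfolded-protein-response factor XBP1 (0.87 ± 0.10) were higher by smaller steps. SEC11A and SPCS1, subunits of the signal peptidase, were the 2 genes not called. Without the sample block edgeR called 13 of the 30 higher and 0 lower.

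**Figure D2:**
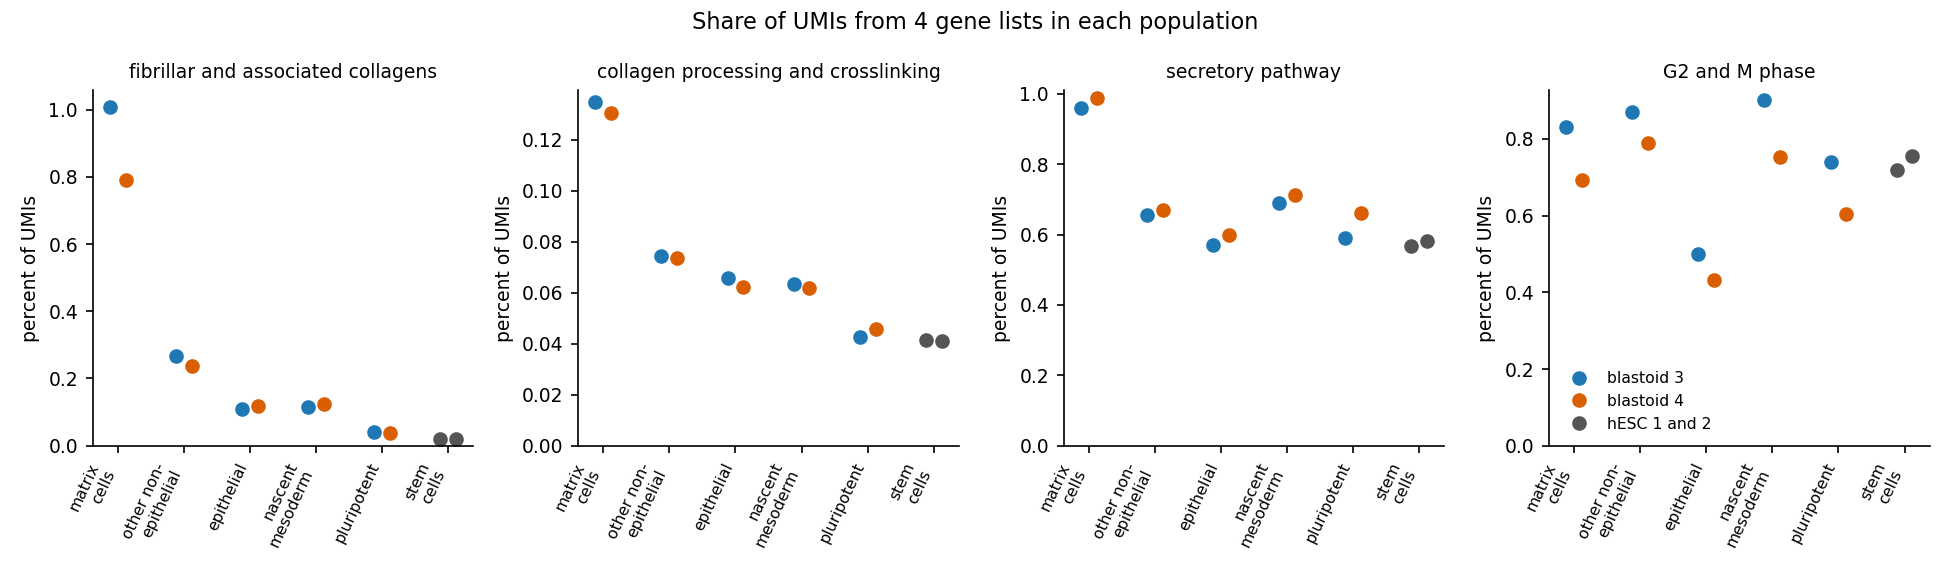
Percent of all UMIs taken by 4 gene lists in each population, with 1 point per sample (blue blastoid 3, orange blastoid 4, grey the stem cell samples). The collagen share of the matrix cells, 1.01% and 0.790%, and their secretory pathway share lie above those of every other population, while their G2 and M phase share lies among them.

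Proteases, protease inhibitors and basement membrane genes were split, with most changes upward. Of 12 proteases and inhibitors 6 were called higher and 1 lower (DESeq2 6 and 0). ADAMTS9 and ADAMTS1, metalloproteases that cleave versican, stood at 263 and 241 against 43.4 and 37.5 CPM (2.69 ± 0.09) and at 419 and 281 against 154 and 111 CPM (1.46 ± 0.08). Their substrate VCAN, a large proteoglycan, stood at 1247 and 1239.7 against 309.9 and 254 CPM (2.20 ± 0.06). The metalloprotease inhibitors TIMP1 (1.54 ± 0.09) and TIMP3 (2.01 ± 0.13) and SERPINF1 (pigment epithelium-derived factor, 2.06 ± 0.15) were higher. The gelatinase MMP2 stood at 105 and 143 against 123 and 129 CPM and was not called. In the basement membrane list 10 of 15 tested genes were called higher and 1, LAMC1, lower (DESeq2 7 and 0). COL4A1 and COL4A2, the network-forming chains, differed by 1.62 ± 0.08 and 1.25 ± 0.08, the linker nidogen NID2 by 0.89 ± 0.07, and COL15A1 by 2.69 ± 0.34. Of the laminin chains LAMB2, LAMA1 and LAMB1 were called higher and LAMC1 lower by edgeR, and DESeq2 called none of these. LAMC1 stood at 136 and 103 against 181 and 129.5 CPM (-0.32 ± 0.09).

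Other matrix components did not move as a block. Among 9 tested proteoglycans 4 were called higher and 1 lower (DESeq2 2 and 1). LUM stood at 1864 and 2056 against 443 and 549.7 CPM (2.04 ± 0.06). The fibromodulin gene FMOD was higher (1.69 ± 0.35) at 12.5 and 9.35 CPM, a call that DESeq2 did not make, and BGN and OGN, small leucine-rich proteoglycans of bone and connective tissue, were not called. GPC3, a membrane glypican of growing embryonic tissues, fell from 219 and 159 to 58 and 68 CPM (-1.58 ± 0.11). Among 11 tested elastic fibre genes 6 were called higher and 3 lower (DESeq2 3 and 0). Fibrillin FBN1 (1.32 ± 0.15), FBLN5 (2.03 ± 0.36) and FBLN1 (0.49 ± 0.07) were called by both tools. FBN2, the fibrillin of embryonic tissue, was called lower by edgeR (-0.46 ± 0.12). Of 11 tested adhesive and matricellular genes 4 were called higher and 2 lower (DESeq2 3 and 1), with fibronectin FN1 at 467 and 321 against 145 and 103 CPM (1.72 ± 0.08), SPARC at 798 and 691 against 265 and 269 CPM (1.54 ± 0.07) and SPON2 (2.91 ± 0.39). With the rule applied to cells thinned to 2000 UMIs 3 of the adhesive and matricellular genes were called higher and 4 lower by edgeR. The exclusions were read from the thinned counts too, so the cells compared there can include epithelial cells that the full counts exclude. Tenascin TNC stood at 19.5 and 20.4 against 21.5 and 17.5 CPM and was not called.

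**Figure D3:**
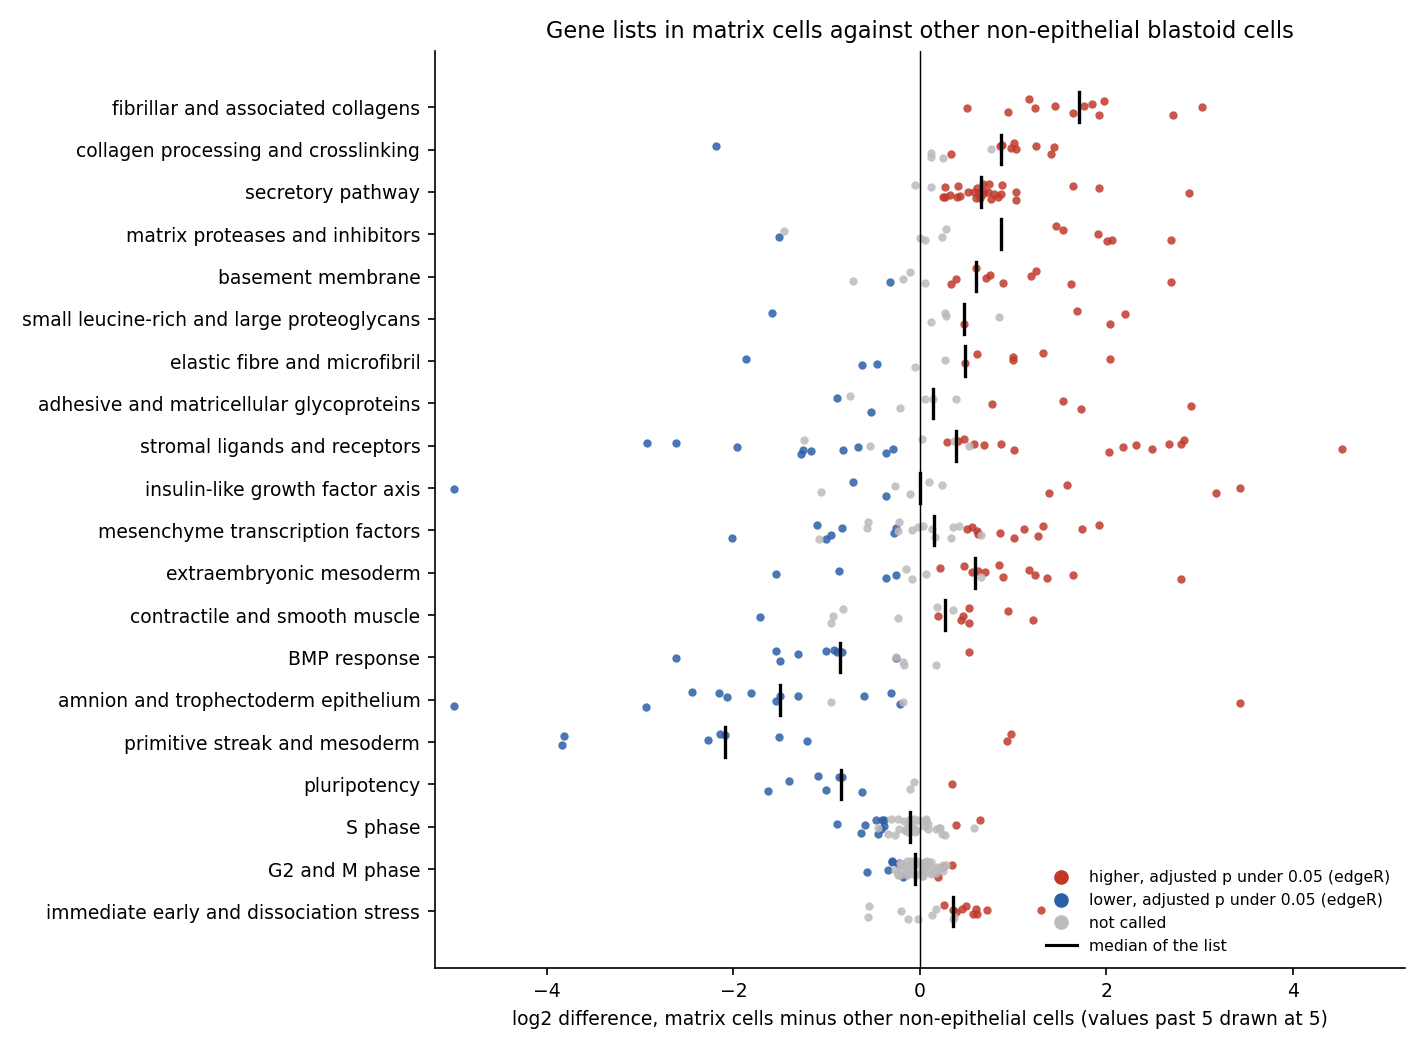
Log2 difference between matrix cells and the other non-epithelial blastoid cells for the tested genes of 20 lists; each point is a gene, red and blue are edgeR calls in either direction, grey is not called, and the black bar is the list's median. The collagen list lies wholly to the right of 0 with a median of 1.70, and the BMP response list has a median of -0.86.

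Secreted signals differed in both directions. Of 30 tested stromal ligands and receptors 15 were called higher and 10 lower by edgeR, and 12 and 1 by DESeq2. HGF, the ligand of the MET receptor, stood at 501 and 224 against 76.2 and 32.5 CPM (2.80 ± 0.09), and was lower in blastoid 4 than in blastoid 3 in both populations. FGF7, a ligand of the epithelial FGF receptor, stood at 50.5 and 27.2 against 1.91 and 1.58 CPM (4.53 ± 0.27). The angiopoietin ANGPT1 (2.02 ± 0.30), the neurotrophin receptor NTRK2 (2.31 ± 0.13), BMP5 (0.87 ± 0.13), WNT2 (2.67 ± 0.43) and TGFB1 (1.00 ± 0.15) were higher by both tools. The extracellular WNT inhibitors FRZB (2.83 ± 0.13), DKK1 (2.17 ± 0.38) and DKK2 (2.49 ± 0.36) were higher, and SFRP1, another, was lower (-1.96 ± 0.16). WNT5A, a ligand of noncanonical WNT signalling, stood at 116 and 156 against 382 and 271 CPM (-1.25 ± 0.10), but DESeq2 gave it an adjusted p of 0.0872. The chemokine CXCL12 was called lower by edgeR at 2 and 1.7 against 13.6 and 9.82 CPM. PDGFRA, a receptor that marks mesenchyme, differed little (0.41 ± 0.11) and was not called by DESeq2.

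Some genes of the insulin-like growth factor axis were among the larger differences, but the list as a whole was not shifted. Of 12 tested genes 4 were called higher by both tools and 3 lower by edgeR alone, with a median difference of -0.0022 against -0.0093 over all genes. IGFBP3 stood at 1953 and 2038 against 180.2 and 203 CPM (3.43 ± 0.06) and had a UMI in 83.2% and 83.1% of matrix cells against 24.7% and 32.6% of other non-epithelial cells. PAPPA, a protease that frees insulin-like growth factors from binding proteins, stood at 116 and 44.2 against 12.9 and 5.53 CPM (3.18 ± 0.16). The growth factor gene IGF2 and its imprinted neighbour H19, a noncoding RNA, stood at 105 and 55.3 against 37.2 and 18.8 CPM (1.58 ± 0.13) and at 2488 and 1607 against 1009.9 and 623 CPM (1.38 ± 0.05). The receptors IGF1R and IGF2R were not called. The protease PAPPA2 had 0 UMIs in the matrix cells of both samples, against 2.13 and 3.84 CPM in the other non-epithelial cells and 112 and 247 CPM in epithelial cells.

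The 12 largest rises among genes with at least 100 CPM, outside the rule and in the same direction in both samples, were SST, STC1, CHST2, IGFBP3, CADM3, FRZB, HGF, PDPN, MT1E, COL3A1, ADAMTS9 and STMN2. SST, the peptide hormone somatostatin, stood at 379 and 292 against 18.2 and 7.79 CPM (4.75 ± 0.11). STC1, the secreted hormone stanniocalcin, stood at 278 and 195 against 16.7 and 10.5 CPM (4.17 ± 0.11). CHST2, a Golgi sulfotransferase of glycan chains, stood at 117 and 130.1 against 7.62 and 6.77 CPM (4.14 ± 0.15). In each of these genes the lower matrix cell value lay more than 10 times above the higher value of the other cells. CADM3, an adhesion molecule of the immunoglobulin family, stood at 119 and 99.5 against 13.5 and 11.1 CPM (3.21 ± 0.14), and PDPN, the membrane glycoprotein podoplanin, at 369 and 312 against 50.2 and 53 CPM (2.78 ± 0.09). STMN2, a microtubule-destabilising protein best known from neurons, stood at 319 and 220.2 against 52.7 and 39.8 CPM (2.60 ± 0.09) and at 307 and 542 CPM in epithelial cells. MT1E, a metallothionein, stood at 106 and 125 against 20.3 and 15 CPM (2.74 ± 0.13), with the limit that reads of near-identical metallothionein genes can be assigned to the wrong copy.

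The high levels of SST and STC1 came from few cells. SST had a UMI in 59 of 303 and 21 of 136 matrix cells, with up to 124 and 58 UMIs in a single cell, and the 10% of matrix cells with the most SST held 93.8% and 97.1% of its UMIs. STC1 had a UMI in 67 of 303 and 31 of 136 matrix cells, and the top 10% held 89.2% and 90.4%. FGF7 and PAPPA were also confined to a minority. FGF7 had a UMI in 17.8% and 14.7% of matrix cells, with 76.2% and 81.25% of its UMIs in the top 10%. PAPPA had a UMI in 25.1% and 20.6%, with 70.7% and 73.1% in the top 10%. HGF was spread more widely, in 66.7% and 48.5% of the cells with 42.5% and 55.3% of UMIs in the top 10%, and COL3A1 more evenly still, with 24.5% and 26.9%. With cells thinned to 2000 UMIs, SST was detected in 14% and 10.3% of matrix cells, 1.41% and 1.19% of other non-epithelial cells and 0.568% and 0% of epithelial cells.

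Matrix cells with SST or STC1 more often carried some other genes, in part the same ones. EGFL6 was detected in 61.0% of the 59 SST-positive matrix cells of blastoid 3 against 36.9% of the 244 others, and in 66.7% of 21 against 28.7% of 115 in blastoid 4. MGP showed no such difference with SST, at 23.7% against 26.6% and 28.6% against 25.2%. Among the 67 STC1-positive cells of blastoid 3 HGF was detected in 82.1% against 62.3% of the 236 others, and in 90.3% of 31 against 36.2% of 105 in blastoid 4. EGFL6 was also more frequent with STC1, at 55.2% against 37.7% and 61.3% against 26.7%, and HGF with SST, at 76.3% against 64.3% and 66.7% against 45.2%. FGF7 followed STC1 too, at 32.8% against 13.6% and 35.5% against 8.57%. Median depth was 5462 UMIs in STC1-positive and 6436.5 in STC1-negative cells of blastoid 3, and 8348 and 8262 in blastoid 4. EGFL6 and MGP are matrix genes that helped to choose these cells, so their shares among matrix cells were shaped in part by the rule. How far the rule accounts for the EGFL6 difference, or for its absence in MGP, was not tested. HGF and FGF7 lie outside the rule. All shares in this paragraph describe cells of 2 libraries and were not tested.

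**Figure D4:**
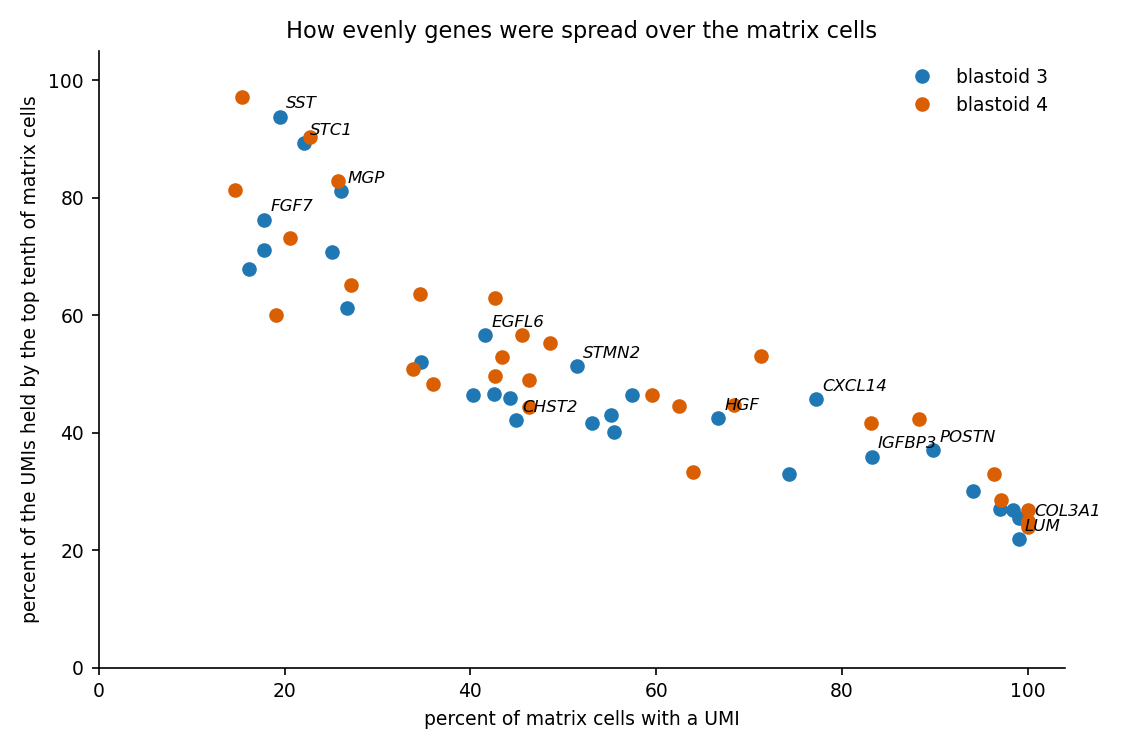
Percent of matrix cells with a UMI of a gene (x axis) against the percent of its UMIs held by the 10% of cells with the most (y axis), for 30 genes in blastoid 3 (blue) and blastoid 4 (orange), with some genes named at their blastoid 3 point. SST, STC1 and MGP lie at the upper left, concentrated in few cells, and COL3A1 and LUM at the lower right, present in nearly every cell.

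The 12 largest falls were HOXB-AS3, RND3, PRTG, GPC3, ID3, PTPN13, CD24, CNTNAP2, ID1, MFGE8, FAM89A and WNT5A. HOXB-AS3, a noncoding RNA antisense to part of the HOXB cluster, stood at 41.5 and 58.7 CPM in matrix cells against 328 and 306 in the other non-epithelial cells (-2.66 ± 0.11), with the limit that the use of strand in counting is not given in the sources used here. PRTG stood at 187 and 161 against 652 and 430.0 CPM (-1.59 ± 0.08), and CD24, a surface glycoprotein of pluripotent and epithelial cells, at 188 and 202 against 605 and 452 CPM (-1.40 ± 0.08). MFGE8, a secreted phosphatidylserine-binding protein, stood at 123 and 155 against 335 and 372 CPM (-1.31 ± 0.08). The falls ranged from -2.66 to -1.25 and the rises from 2.60 to 4.75.

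**Figure D5:**
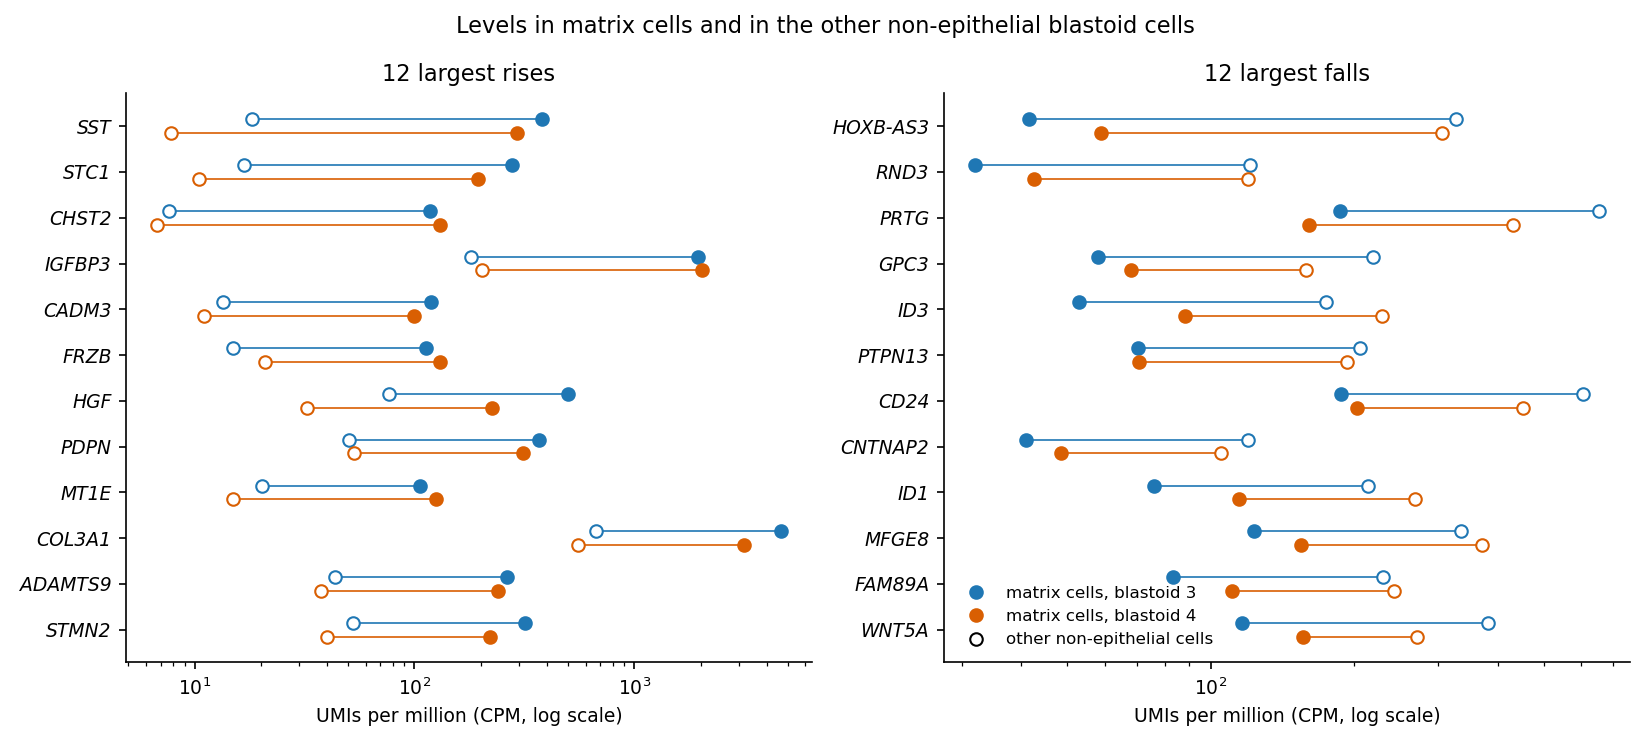
Level of the 12 genes with the largest rise (left) and the largest fall (right) in matrix cells (filled) and other non-epithelial cells (open) of blastoid 3 (blue) and blastoid 4 (orange), in CPM on a log axis. The genes were chosen for large differences in the same direction in both samples, so the gaps between filled and open points follow from that choice. SST, at the top left, has the widest gap.

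Mesenchymal transcription factors set the matrix cells apart only in part. Of 32 tested factors 11 were called higher and 7 lower by edgeR (DESeq2 8 and 3). ZEB2, a zinc-finger factor of epithelial-mesenchymal transition, stood at 214 and 177 against 89.2 and 72.7 CPM (1.33 ± 0.09) and HAND2 at 441 and 229 against 239.6 and 143 CPM (0.85 ± 0.08). TCF21 (1.27 ± 0.14), OSR1 (1.92 ± 0.23), TWIST1 (1.01 ± 0.10) and GATA6 (0.62 ± 0.09) were higher at lower levels. PRRX1, a homeodomain factor of limb and craniofacial mesenchyme, was lower at 264 and 276 against 597 and 480.1 CPM (-0.95 ± 0.07). Other factors were as abundant outside the matrix cells, with PITX1 at 666 and 949 against 624 and 902 CPM and TBX3 at 309 and 319.7 against 353 and 307 CPM, both not called. HAND1 stood at 647 and 917 against 842 and 1073 CPM, a small fall (-0.25 ± 0.06) that DESeq2 did not call (adjusted p = 0.134).

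Genes listed for extraembryonic mesoderm were mostly higher, with 12 of 20 called higher and 4 lower (DESeq2 9 and 1), a list that shares collagen VI, HGF and NID2 with those above. LIX1, a gene of mesenchymal cells, stood at 199 and 190.5 against 154 and 137 CPM (0.47 ± 0.08), and KDR, a VEGF receptor of mesoderm and endothelium, at 190.0 and 202 against 133 and 88.9 CPM (0.85 ± 0.09). The 4 genes called lower were DLK1, BMP4, HAND1 and the cadherin gene CDH2. CDH2 stood at 32.5 and 23.8 against 111 and 56 CPM (-1.55 ± 0.15). FOXF1, TBX20 and PMP22 were not called. VIM stood at 833 and 949.7 against 802 and 978 CPM and was not called.

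Most tested genes of the BMP response were called lower in the matrix cells. Of 14 tested genes 9 were called lower and 1 higher by edgeR, and 7 and 1 by DESeq2, with a median difference of -0.86. ID1 stood at 76 and 115 against 213 and 268 CPM (-1.31 ± 0.10), ID2 at 227 and 304 against 467 and 539 CPM (-0.88 ± 0.07) and ID3 at 53 and 88.4 against 175 and 229 CPM (-1.50 ± 0.10). The homeodomain targets MSX1 (-0.83 ± 0.09) and MSX2 (-1.01 ± 0.11) and the extracellular BMP regulator BMPER (-2.61 ± 0.44, at 3.5 and 0 CPM) were lower. The 1 gene called higher was BAMBI, a decoy receptor of the family, at 442 and 589 against 316 and 427 CPM (0.53 ± 0.07). SMAD6, SMAD7, SMAD9 and GATA2 were not called. Transcripts of the ligand BMP4 stood at 168 and 168 against 226 and 225 CPM (-0.37 ± 0.08), a fall that DESeq2 did not call. In the TGF-beta response list 3 of 11 tested genes were called higher by edgeR and 0 by DESeq2. With the rule applied to thinned cells, where epithelial cells can pass the exclusions, 0 were called higher and 2 lower by edgeR.

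Genes of epithelial, streak and pluripotent cells were mostly lower in the matrix cells. Of 15 tested amnion and trophectoderm genes 12 were called lower and 1, IGFBP3, higher (DESeq2 7 and 1). The adhesion genes CDH1 and EPCAM stood at 8 and 3.4 against 57.7 and 37.2 CPM (-2.93 ± 0.24) and at 8.5 and 6.8 against 32.9 and 22 CPM (-1.81 ± 0.26), and GATA3, a factor of trophectoderm and amnion, at 21 and 23 against 68.5 and 62.1 CPM (-1.54 ± 0.16). The simple keratins KRT8 and KRT18 were present in the matrix cells at 599 and 768 and at 373 and 545 CPM, with differences of -0.31 ± 0.06 and -0.60 ± 0.06. Of 9 tested primitive streak and mesoderm genes 7 were called lower and 2 higher (DESeq2 2 and 1). The caudal factor CDX2 stood at 13 and 25.5 against 84.3 and 77.7 CPM (-2.14 ± 0.17) and the apelin receptor APLNR at 8 and 13.6 against 34.1 and 24.3 CPM (-1.51 ± 0.24), while RSPO3, a WNT agonist, was higher (0.98 ± 0.16). Of 10 tested pluripotency genes 7 were called lower and 1 higher (DESeq2 3 and 0), with the RNA-binding protein gene LIN28A at 180.0 and 153 against 315 and 215 CPM (-0.62 ± 0.08).

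Cell cycle genes stood at about the level of the other non-epithelial cells. Of 54 G2 and M phase genes 3 were called higher and 7 lower by edgeR and 0 in either direction by DESeq2, with a median difference of -0.05. Of 43 S phase genes 2 were called higher and 9 lower (DESeq2 0 and 2), with a median of -0.11. The topoisomerase TOP2A stood at 794 and 420.0 against 774 and 504 CPM and the proliferation marker MKI67 at 247 and 220.2 against 251 and 254 CPM, both not called. The G2 and M phase list took 0.830% and 0.694% of UMIs in matrix cells, 0.871% and 0.790% in other non-epithelial cells and 0.499% and 0.431% in epithelial cells. The cyclin CCND1 was lower at 60.0 and 70.6 against 107 and 107 CPM (-0.68 ± 0.11). TOP2A was detected less often in STC1-positive than in STC1-negative matrix cells of blastoid 3 (41.8% against 61.9%) and at 48.4% against 44.8% in blastoid 4.

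Markers of other mesodermal types were mixed. Of the 14 endothelial and blood genes with counts TEK and KDR were called higher, by both tools, but PECAM1, CDH5, SOX17 and PTPRC had 0 UMIs in the matrix cells of both samples. The list summed to 229.5 and 236.4 CPM in matrix cells against 150.4 and 111.4 in the other non-epithelial cells. Most of each sum came from KDR alone, and only 3 of the 14 genes were tested. TEK, the angiopoietin receptor, stood at 29.5 and 25.5 against 4.82 and 7.56 CPM (2.26 ± 0.25). Among 10 tested cardiac genes TNNT2 (1.27 ± 0.14) and TNNI1 (0.77 ± 0.13) were higher and ACTC1 lower (-0.62 ± 0.12, not called by DESeq2), with MYH6 at 0 in both samples (DESeq2 2 and 0). Among 14 tested contractile genes 7 were called higher and 1 lower (DESeq2 4 and 1), with TPM1 at 1352 and 1575 against 1012 and 1199.9 CPM (0.46 ± 0.05), MYL9 at 169 and 197 against 89.9 and 107 CPM (0.95 ± 0.09) and RGS5, a regulator of G protein signalling known from pericytes, at 542 and 583 against 380.4 and 429.6 CPM (0.53 ± 0.06). The contractile list summed to 3226 and 3499 CPM in matrix cells against 2492 and 2778 in the other non-epithelial cells, with ACTG2 and MYH11 at 0 in the matrix cells of both samples. Its median difference of 0.27 turned to -0.28 with the rule applied to cells thinned to 2000 UMIs, where epithelial cells can pass the exclusions. There 3 genes were called higher and 3 lower and the TPM1 difference was -0.10. With at least 4 matrix genes required the median was -0.31, with 4 called higher and 3 lower, and without the sample block edgeR called 1 higher and 1 lower. TECRL, an endoplasmic reticulum gene of heart muscle, was lower at 24.5 and 18.7 against 75.8 and 75.8 CPM (-1.71 ± 0.16). Of 6 tested cartilage, bone and tendon genes 2 were called higher and 4 lower (DESeq2 1 and 1), with SOX9 at 11.5 and 11.1 against 36.7 and 24.3 CPM (-1.43 ± 0.23) and COL9A1, a cartilage collagen, at 0 UMIs.

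Genes induced by cell dissociation and stress were also among those called higher, though not under every choice of cells. Of 19 genes 10 were called higher and 0 lower by edgeR, and 2 (ATF3 and JUND) by DESeq2, with a median difference of 0.36. Without the sample block edgeR called 0 of the 19. With the rule applied to thinned cells, where epithelial cells can pass the exclusions, edgeR called 3 higher and 7 lower. The list median was then 0.0051. The list summed to 1890.7 and 1720.1 CPM in matrix cells, 1469.8 and 1628.8 in the other non-epithelial cells and 3573 and 3752 in epithelial cells. The part of these genes in the other results was not tested.

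Against all other blastoid cells, 1986 in blastoid 3 and 1815 in blastoid 4, which include the epithelial, nascent mesoderm and pluripotent cells, the matrix cells had 1641 of 14440 genes higher (11.4%) and 1922 lower (13.3%) by edgeR with the sample as a block. DESeq2 called 543 higher (3.76%) and 391 lower (2.71%). This comparison uses the same matrix cells as the one above and is not independent of it. Its rises were again led by SST (5.34 ± 0.12), CHST2 (4.34 ± 0.15), STC1 (3.96 ± 0.12), CADM3 (3.60 ± 0.15) and FRZB (3.40 ± 0.14), and CHN1, a Rac GTPase-activating protein, and SYT10, a synaptotagmin, entered the 12 largest at 2.73 ± 0.10 and 2.72 ± 0.12. The 12 largest falls were CDH1, EPCAM, SLC2A3, L1TD1, WFDC2, GATA3, TSTD1, ID1, SEMA6A, HOXB-AS3, ID3 and SLC38A1. The neuronal-type glucose transporter SLC2A3 stood at 62.5 and 41.7 CPM in matrix cells and 1428 and 1117 CPM in epithelial cells, with a difference of -2.99 ± 0.12 against all other blastoid cells. The secreted epithelial protein gene WFDC2 stood at 42 and 52.7 against 676 and 787 CPM in the same order, with a difference of -2.64 ± 0.12 against all other blastoid cells.

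Some secreted products had their highest level in the epithelial cells. TGFBI, a secreted adhesion protein, stood at 36.5 and 34.9 CPM in matrix cells, 24.4 and 18.1 in other non-epithelial cells and 213 and 304 in epithelial cells. PTN, the heparin-binding growth factor pleiotrophin, stood at 152 and 125, 97.9 and 96.8 and 341 and 613 CPM in the same order. With the rule applied to thinned cells neither gene was higher in matrix cells, at -0.33 for TGFBI and -0.04 for PTN. The cells compared there can include epithelial cells, since the exclusions were thinned as well. IGFBP5, another binding protein of insulin-like growth factors, stood at 24 and 23 CPM in matrix cells and 179 and 296 CPM in epithelial cells. IGFBP7, a related secreted protein, stood at 4 and 2.55 and 164 and 319 CPM. COL12A1 was the 1 collagen of the list called lower against all other blastoid cells, and DESeq2 did not call it. Its level was 0.5 and 0 CPM in matrix cells and 22.7 and 33.1 CPM in epithelial cells.

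Against the undifferentiated stem cell samples, 3728 of 14440 genes (25.8%) were higher and 3928 (27.2%) lower in the matrix cells by edgeR, with 2 samples a group and no block. DESeq2 called 2894 higher (20%) and 2946 lower (20.4%). Medium, culture form and cell type differ together between these groups and cannot be told apart. The 5 largest rises were COL3A1, LUM, PITX1, HAND1 and HAND2, each with 0 UMIs in the cells of both stem cell samples, so no fold is given. The 5 largest falls were the noncoding transcripts LINC00678, FOXD3-AS1, AC009446.1, LNCPRESS1 and MIR302CHG. MIR302CHG, the host gene of the pluripotency-associated miR-302 cluster, stood at 684 and 706 CPM in hESC 1 and hESC 2 and 1 and 0 in matrix cells. LINC00678 stood at 243 and 222 CPM in the stem cell samples and 0 and 0 in matrix cells.

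Collagens and the secretory pathway were higher in this comparison as well. Of 13 tested collagens 11 were called higher and 1, COL5A3, lower (DESeq2 11 and 1), with COL1A1 at 13.6 and 15.5 CPM in the stem cell samples and COL6A3 at 1.93 and 1.51. The secretory pathway list had 19 of 30 genes called higher and 1 lower (DESeq2 19 and 1), with HSPA5 at 164 and 221 CPM in stem cells (1.80 ± 0.16) and CALR at 338 and 412 (1.46 ± 0.15). The translocon subunits SEC61B and SEC61G were not called, and the signal peptidase subunit SEC11A was the 1 gene called lower. The secreted WNT inhibitors SFRP1 and SFRP2 fell from 642 and 726 and 487 and 523 CPM to 17 and 28.1 and 14.5 and 18.7 CPM (-5.14 ± 0.22 and -5.11 ± 0.20). Of 12 pluripotency genes 11 were called lower and LIN28B higher (0.76 ± 0.13; DESeq2 11 and 1), with TERF1, a telomere-binding protein, at 1366 and 1367 against 167 and 161 CPM (-3.20 ± 0.16).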

How the data were processed

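Whole-number UMI counts per gene and cell were deposited by the authors as 1 table for each of the 4 samples. Per the submitters' processing notes they were made with Cell Ranger and GRCh38, whose versions are not given in the sources used here, as is the use of strand. The tables hold barcodes with at least 201 genes. Cells with at least 500 genes were kept. The matrix cells and the gene lists were chosen with earlier results of these data known.

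Counts were summed per sample and population and tested with edgeR 4.0.16 (quasi-likelihood test, TMM factors, filterByExpr, Benjamini-Hochberg adjusted p under 0.05), with DESeq2 1.42.0 as an alternative. Both sums of a blastoid sample come from the same library, so the sample was a block within blastoids. That pairing leaves 1 residual degree of freedom, and the calls depend on the spread pooled over genes. The 20 rule genes stayed in each fit and out of every count. Samples, not cells, were the replicates, with 2 a group. The p-values rest on the spread between these samples, which may be technical, and on its pooling over genes. Within blastoids the block removes the level that both sums of a sample share, so the spread is that of the difference. The p-values cover no variation beyond these samples.

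Named genes are list members and, within blastoids, the 12 largest rises and the 12 largest falls among called genes with at least 100 CPM in either population of both samples and 1 direction (5 and 5 against stem cells). Shares at equal depth used cells thinned to 2000 UMIs. Doublets were called with Scrublet in scanpy 1.11.5 and kept; its calls shifted with the number of threads, which was fixed at 1. The scripts were tested on simulated data. Matching of symbols to GENCODE 29 covered 95.4% of blastoid genes. Promoter windows are from RefSeq. Some genes are not reported here.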

Additional observations from a re-analysis of the deposited data

Results flagged for a closer look

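In blastoid 3, 2 barcodes with fewer than 500 genes met the rest of the rule for matrix cells, among 1198 such barcodes (0.167%). They lie outside every comparison above. All 1035 barcodes shared between the blastoid tables are among these 1198, since leaving shared barcodes out kept all 2289 cells of blastoid 3. Whether the 2 flagged barcodes are shared was not examined. The stem cell samples had 0 among 3676 and 0 among 4400 barcodes under 500 genes, and blastoid 4 had 0 among 120, which allows a share of up to 2.5%.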

How the results depend on the processing

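Against the other non-epithelial cells edgeR called 3004 genes, DESeq2 733, edgeR without the replicate block 728, and a fold limit of log2 1 left 1047. Against all other blastoid cells the numbers were 3563, 934 with DESeq2, 1233 without the replicate block and 1678 with the fold limit. Against stem cells 7656 genes were called and 4764 with the fold limit, and leaving out 1 sample gave 5216 to 7518. No paired analysis was possible there because the groups share no replicate numbers, and within blastoids leaving out a sample leaves values without a test. The mean share of matrix cells was 10.1%, 17.7% with 2 matrix genes needed, 5.91% with 4, 5.97% with the rule on thinned counts, and 6.97% to 13.2% leaving out a sample. All other alternatives kept these counts within 1.5 times, and the share was 7.66% to 10.4% under the others. Against the other non-epithelial cells, 5 of 138 named genes changed sign with the rule on thinned counts and were called in either fit. They went to -1.08 for IGFBP5, -0.0362 for PTN, -0.33 for TGFBI, -0.94 for TNC and -0.10 for TPM1, and the cause was not tested. Sign changes of genes called in neither fit were not counted. The exclusions were thinned too, and the median of the amnion and trophectoderm list went from -1.50 to -2.61 there. DESeq2 did not call 17 of these 138 genes that edgeR called, and edgeR without the replicate block did not call 31. Leaving out cells whose barcode occurs in both blastoid tables, chosen after seeing the data, ended the call of 4 of 134 (COL21A1, MIA3, PDGFRA and SFRP2). Genes near 1 CPM rest on a few UMIs in the 136 matrix cells of blastoid 4.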

Other observations

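Several gene groups outside the comparisons above are given here as values against the other non-epithelial cells. Among 14 tested genes of complement, interferon and antigen presentation 5 were called higher and 1 lower by edgeR (DESeq2 3 and 0). IFITM3, a membrane protein that restricts virus entry, stood at 599 and 678 CPM in matrix cells of blastoid 3 and blastoid 4 against 363 and 428 CPM. IFITM2, a related protein, stood at 112 and 90.1 against 52.1 and 54.7 CPM, and at 6.96 and 6.28 CPM in epithelial cells. B2M, the light chain of MHC class I, stood at 456 and 491 against 368 and 381 CPM.

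In the retinoid pathway 1 of 9 tested genes was called higher and 3 lower by edgeR, and 0 by DESeq2. CRABP1, a retinoic acid binding protein, stood at 5.00 CPM in matrix cells of blastoid 3 and 28.9 in blastoid 4, against 43.1 and 41.5 CPM, so the 2 samples differed in size. Among 5 tested endoderm genes FRZB and CER1 were called higher and APOA2 lower (DESeq2 1 and 0), with CER1 resting on few UMIs. In the list of cell cycle exit 2 of 9 tested genes were called higher and 3 lower (DESeq2 0 and 1), and the kinase inhibitors CDKN1A, CDKN1B and CDKN1C were not called.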
